A study of Mus musculus with 6 samples.

Results

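The 10 genes described here encode basic leucine zipper (bZIP) transcription factors of the AP-1 and ATF class: Fos, Fosb, Fosl1, Fosl2, Jun, Junb, Jund, Atf3, Maff and Batf3. They were chosen by gene symbol from a table of RefSeq transcripts, and they are 10 of the 20204 protein coding genes in it, each with a single transcript entry. Expression was measured by paired-end directional RNA-seq of poly-A RNA from wildtype (WT) mouse embryonic fibroblasts (MEFs), which are primary mesenchymal cells grown from whole embryos. The first library was untreated, and the others came from cells given the inflammatory cytokine TNFα (20 ng/ml) for 1.5, 6 or 24 hr. There was 1 library per time and 4 in all. Every library came from the same kind of cells: WT, strain C57BL/6x 129, from 13.5-day embryos, at passage 4, in serum-containing medium. Chromatin immunoprecipitation and sequencing (ChIP-seq) of H3K4me3, a histone mark of promoters, was performed on untreated MEFs with 1 library and 1 input library. A MEF culture is a mixed primary population, and the labels do not say which independently derived line gave which library.

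Expression is given as RPKM (reads per kilobase of transcript, scaled to library depth), which sets levels per transcript length, so that levels can be compared between genes. With 1 library per time no spread between cultures was measured and no test was made. In its place, each library's R1 and R2 values are available, whose content is not stated and which were not taken as replicates, together with a 95% interval for counting error of the recovered reads (exact Poisson for a level, exact binomial for a log2 ratio). Reads that are PCR copies are not independent molecules, so these intervals cover counting error only, and they compare libraries, not conditions. The worth of 1 read varied from 0.839 to 1.17 of that in the first untreated column. The summed RPKM of coding genes was 1.20, 0.542 and 0.969 times the untreated sum at 1.5, 6 and 24 hr. The reason for the lower sum of the 6 hr library was not tested. A gene was counted as higher or lower at a change of at least 2-fold with an average RPKM above 1. These are the study's criteria in form, but RPKM here is the deposited value divided by 41, the bases in 1 read, and may not be the scale on which the study applied them.

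Proteins of the AP-1 class bind DNA as pairs held together by the leucine zipper. Jun proteins can pair with each other, with Fos proteins or with ATF partners, whereas Fos proteins need a partner from another family. The pairs bind the AP-1 site (TGANTCA) or the related cyclic AMP response element (CRE, TGACGTCA), and MAP kinases acting below the TNF receptor modify the Jun and Atf proteins and switch on several of these genes. Fos, Fosb, Jun, Junb and Atf3 are textbook immediate-early genes, whose transcripts appear and vanish quickly after a stimulus.

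To see what sequence lies before the starts of these genes, the 250 bases upstream of each RefSeq start were searched on both strands. Of 17350 mouse promoters (RefSeq, GRCm38.p6), 11 belonged to 9 of the members, Maff having several starts. Jund has more than 1 annotated start in mm9, and which of them its searched window belongs to was not determined. No member promoter held an AP-1 site, which was found in 6.22% of all promoters, or a CArG box, the serum response factor site, which was found in 1.31%. This says only that these letters are not in the window searched. The κB motif, the site of NF-κB, was found at Fos, Fosb, Fosl2 and Maff, against 4.46% of all promoters. The CRE was found once, at Maff (2.05% of all promoters), and the TATA box (TATAAA) once, at Fos (11.3%). The promoters with a match are printed because they show which of these sites the reference places next to a start. Each reads 5′ to 3′ along the gene, and capitals mark the matched letters.
Fos, chr12:85473640-85473889, plus strand: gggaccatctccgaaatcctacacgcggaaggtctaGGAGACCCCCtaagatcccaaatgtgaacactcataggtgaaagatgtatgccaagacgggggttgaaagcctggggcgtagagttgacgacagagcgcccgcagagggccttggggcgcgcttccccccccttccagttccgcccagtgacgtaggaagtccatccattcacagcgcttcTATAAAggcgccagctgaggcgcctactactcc
Fosb, chr7:19310046-19310295, minus strand: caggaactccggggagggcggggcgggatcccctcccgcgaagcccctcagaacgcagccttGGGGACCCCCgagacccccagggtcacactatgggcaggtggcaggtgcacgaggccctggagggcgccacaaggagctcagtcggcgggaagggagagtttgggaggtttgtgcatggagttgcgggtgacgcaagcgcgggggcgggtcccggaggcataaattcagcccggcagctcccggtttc
Fosl2, chr5:32136222-32136471, plus strand: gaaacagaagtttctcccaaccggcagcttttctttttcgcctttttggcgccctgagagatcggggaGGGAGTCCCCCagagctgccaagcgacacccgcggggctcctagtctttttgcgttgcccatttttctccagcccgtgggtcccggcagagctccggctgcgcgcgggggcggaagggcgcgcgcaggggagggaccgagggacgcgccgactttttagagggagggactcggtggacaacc
Maff, first matching start, chr15:79347270-79347519, plus strand: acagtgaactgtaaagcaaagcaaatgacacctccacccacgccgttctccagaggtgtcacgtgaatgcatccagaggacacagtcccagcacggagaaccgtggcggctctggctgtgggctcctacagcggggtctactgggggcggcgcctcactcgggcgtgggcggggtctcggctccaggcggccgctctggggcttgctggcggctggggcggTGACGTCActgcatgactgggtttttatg
Maff, second matching start, chr15:79348152-79348401, plus strand: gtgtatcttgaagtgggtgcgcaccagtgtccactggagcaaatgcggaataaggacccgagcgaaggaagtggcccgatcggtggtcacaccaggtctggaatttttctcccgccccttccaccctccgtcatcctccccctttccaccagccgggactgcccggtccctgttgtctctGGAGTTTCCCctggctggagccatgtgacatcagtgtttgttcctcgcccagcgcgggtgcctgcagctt
The κB match of Fos, GGAGACCCCC, began 214 bases before the start, with its TATA box 33 bases before the start. The κB match of Fosb, GGGGACCCCC, began 188 bases before the start. Fosl2 held a pair of overlapping κB matches, GGGAGTCCCC and GGAGTCCCCC, 182 and 181 bases before the start. At Maff the CRE began 29 bases before one start and the κB match, GGAGTTTCCC, 70 bases before another. These are matches of letters in the reference and not measurements of binding.

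All 10 genes carried an H3K4me3 peak within 1 kb of an annotated start in untreated MEFs, including the 4 genes with little transcript. Among the 19654 coding genes with a start in the mm9 annotation the share was 54.1%. The share was 89.2% of genes with an untreated RPKM above 1, where 6 members lay, and 63.3% of genes between 0.1 and 1, where the other 4 lay. The peak at Fosl2 (mm9, chr5:32434707-32447279) was the longest of the members, at 12573 bp and 4332 tags, and was longer than 99.7% of the 9866 peaks at coding starts. It reached 4138 bp upstream of the start and 8434 bp into the gene. The peak at Jun (mm9, chr4:94714637-94721716) covered the whole gene and 7080 bp with 4211 tags, or 595 tags per kb, a density above 99.9% of start peaks, whose median was 330 tags per kb. The peak at Junb (mm9, chr8:87498363-87505719) also covered the whole gene and 7357 bp with 3155 tags. Jund, which had the most transcript of the 10, had a shorter peak (mm9, chr8:73221693-73226089) of 4397 bp with 2108 tags. One annotated Jund start lay 55 bp outside that peak and the other inside it. The peak at Fos covered 5596 bp with 2099 tags and that at Fosb 4422 bp with 1919 tags, although both genes had an untreated RPKM below 1. Fosl1 had 4131 bp and 1452 tags, Atf3 5898 bp and 1308 tags, and Maff 3975 bp and 1125 tags. Batf3 had the smallest, 2496 bp with 389 tags and a fold enrichment of 23.9, shorter than most start peaks, whose median length was 3293 bp. The order of the tag counts was thus not the order of the transcript levels.

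**Figure D1:**
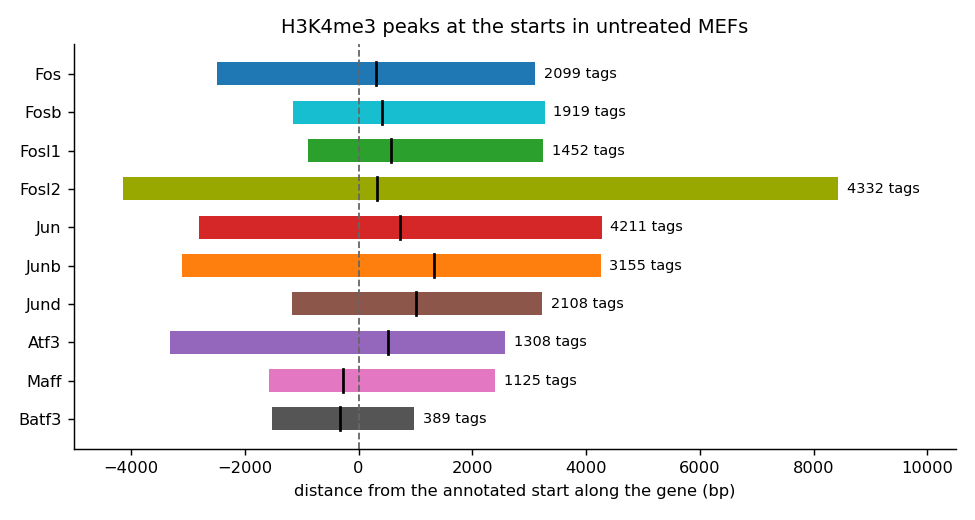
H3K4me3 peaks of untreated MEFs at the 10 genes, drawn against distance in bp from the annotated start along the direction of the gene. Each bar is the called peak, the black tick its summit and the number its tags in 1 library. Where a gene has 2 starts within reach of the peak, one is drawn. Every bar crosses the start, that of Fosl2 is the longest (12573 bp) and that of Batf3 the shortest (2496 bp).

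In untreated MEFs the class was dominated by Jund and Fosl2. Jund stood at 41.3 RPKM and Fosl2 at 11.8 RPKM, followed by Junb at 5.31, Jun at 4.22, Fosl1 at 2.82 and Maff at 1.78 RPKM. Fos (0.745 RPKM), Batf3 (0.541), Fosb (0.418) and Atf3 (0.313) were each below 1 RPKM. Among these low genes, the counting intervals of Batf3 (0.315 to 0.867 RPKM) overlapped those of all the other low genes, so its place among them was not resolved. Over the 4 libraries, 6 of the 10 genes had an average RPKM above 1 (Fosl1, Fosl2, Jun, Junb, Jund and Maff), as did 8706 of all coding genes, and Fos, Fosb, Atf3 and Batf3 did not.

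At 1.5 hr of TNFα, 4 of these 6 genes were at least 2-fold above the untreated library, namely Junb, Maff, Fosl1 and Jun, and none was 2-fold below. Of all 8706 coding genes above the filter, 31.6% were at least 2-fold higher at 1.5 hr and 7.52% lower. At 6 hr no member was 2-fold higher (1.85% of coding genes), and Jund and Fosl2, 2 of 6, were 2-fold lower (31.0% of coding genes). Each of 4 other scalings of the libraries gave 2 members higher at 6 hr, Fosl1 and Junb, and 1 lower, Jund. Under those scalings 4.88% to 10.2% of coding genes were higher at 6 hr and 2.07% to 3.86% were lower. At 24 hr Junb and Fosl1, 2 of 6, were 2-fold higher (17.4%), and Jund, 1 of 6, was lower (11.9%). The whole libraries shifted against each other: the median coding gene had a log2 ratio of 0.51 (1.5 hr), -0.72 (6 hr) and 0.16 (24 hr). The ratios of single genes keep the authors' scaling between libraries, and this shift is part of each of them. Because these are bulk libraries, fewer cells expressing a gene and less RNA per cell cannot be told apart.

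**Figure D2:**
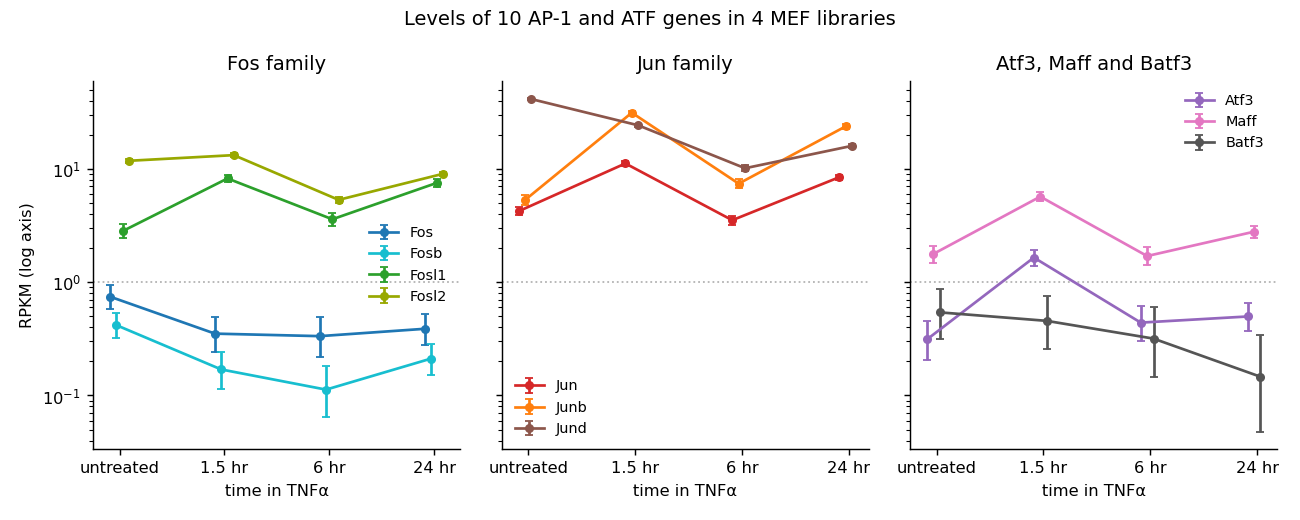
RPKM on a log axis for each gene in the untreated, 1.5, 6 and 24 hr libraries, in panels for the Fos family, the Jun family and Atf3, Maff and Batf3. Points are the mean of the R1 and R2 values of 1 library, bars are exact 95% Poisson intervals for counting error, and the dotted line is 1 RPKM. Junb goes from 5.31 to 31.3 RPKM by 1.5 hr and passes Jund, which goes from 41.3 to 24.2 RPKM.

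Junb, a Jun protein that can restrain as well as assist c-Jun, showed the largest increase of the 10 genes. Its level was 5.31 RPKM before treatment, then 31.3 (1.5 hr), 7.41 (6 hr) and 23.7 (24 hr). The untreated library was the lowest and the 1.5 hr library the highest, and the counting intervals of the 4 libraries did not overlap. Junb was 5.90-fold higher at 1.5 hr, a log2 ratio of 2.56 with a counting interval from 2.41 to 2.71, and 98.6% of coding genes had a lower ratio. R1 and R2 alone gave 2.56 and 2.56. At 24 hr it was 4.46-fold higher, and 98.5% of coding genes had a lower ratio. At 6 hr its log2 ratio was 0.48, above that of 95.5% of coding genes, in a library whose median gene was lower.

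Jun, which encodes c-Jun, the main nuclear substrate of the JNK kinases, was also highest at 1.5 hr, with a smaller increase. It was at 4.22 RPKM before treatment, then 11.2 (1.5 hr), 3.52 (6 hr) and 8.43 (24 hr), so that the 6 hr library was the lowest and the 1.5 hr library the highest. The increase at 1.5 hr was 2.64-fold, a log2 ratio of 1.40 with a counting interval from 1.26 to 1.54. At 24 hr Jun was 1.996-fold higher, just under the 2-fold threshold. At 6 hr its log2 ratio was -0.26, with a counting interval from -0.44 to -0.08, which is above the median of coding genes at that time (-0.72). Relative to the median coding gene, Jun was at 0.89 at 1.5 hr, under 2-fold, and at 0.46 at 6 hr.

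Jund, which is expressed in many resting cells and limits fibroblast growth, went the other way. Its level was 41.3 RPKM before treatment, then 24.2 (1.5 hr), 10.1 (6 hr) and 16.0 (24 hr), and the untreated library was the highest, with no overlap of counting intervals. Jund was 1.70-fold lower at 1.5 hr, 4.07-fold lower at 6 hr and 2.59-fold lower at 24 hr. The log2 ratio at 6 hr, -2.03 with a counting interval from -2.12 to -1.93, was lower than that of all but 1.19% of coding genes. Relative to the median coding gene, Jund was at -1.28, -1.30 and -1.53 on the log2 scale at 1.5, 6 and 24 hr. With coding genes put in 20 bins of GC content, Jund was at -0.06, -1.11 and -0.44 relative to the median of its bin. On that measure it was not 2-fold lower at 24 hr.

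The makeup of the Jun family therefore differed between untreated and treated libraries. Jund made up 81.2% of the summed RPKM of Jun, Junb and Jund before treatment, and then 36.3% (1.5 hr), 48.1% (6 hr) and 33.2% (24 hr). Junb made up 10.4%, 46.9%, 35.2% and 49.3% at the same times, and Jun 8.32%, 16.7%, 16.7% and 17.5%. Jund was 7.78-fold above Junb in the untreated library, whereas Junb was 1.29-fold above Jund at 1.5 hr and 1.48-fold at 24 hr. At 6 hr Jund was again the higher one, 1.37-fold above Junb. These shares compare genes within a library and so do not depend on a scaling factor applied to a whole library. The summed level of the family was 50.8 RPKM before treatment, then 66.7 (1.5 hr), 21.1 (6 hr) and 48.1 (24 hr), which changed less than its makeup between the untreated and 24 hr libraries.

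**Figure D3:**
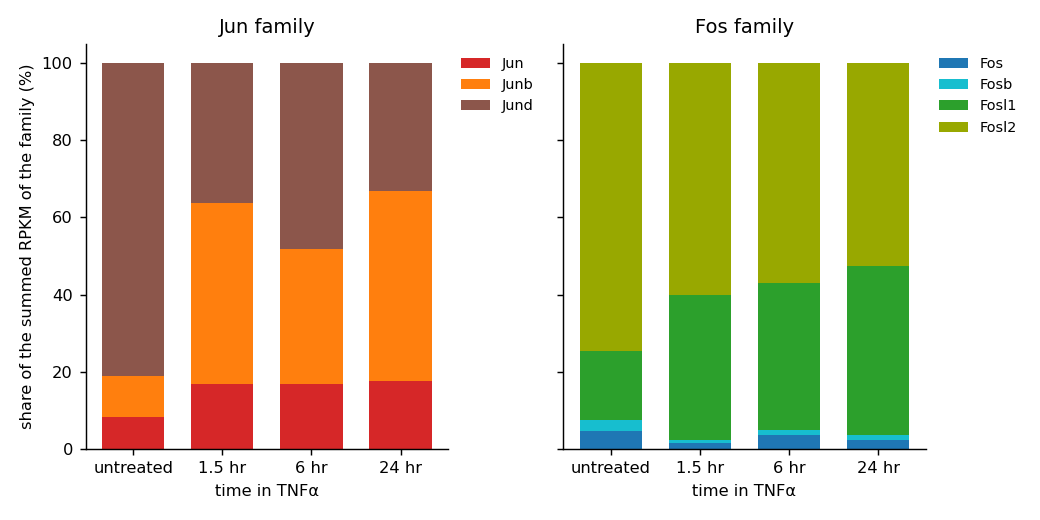
Share, in percent, of each gene in the summed RPKM of its family in each of the 4 libraries, with the Jun family on the left and the Fos family on the right. Bars stack to 100% and stand for 1 library each, with no error drawn. Jund shrinks from 81.2% to 33.2% of the Jun family between untreated and 24 hr, and Fosl1 grows from 17.9% to 43.8% of the Fos family.

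Among the Fos genes, Fosl1 and Fosl2, which encode Fra-1 and Fra-2 and lack the strong activation domain of c-Fos, made up nearly all of the transcript. Fosl1 was at 2.82 RPKM before treatment, then 8.23 (1.5 hr), 3.59 (6 hr) and 7.54 (24 hr). It was 2.92-fold higher at 1.5 hr, a log2 ratio of 1.54 with a counting interval from 1.31 to 1.77, and 2.67-fold higher at 24 hr. Its counting intervals at 1.5 and 24 hr overlapped (7.60 to 8.90 and 6.97 to 8.14 RPKM), so these neighbouring levels were not separated. Fosl2 was at 11.8 RPKM before treatment, then 13.2 (1.5 hr), 5.33 (6 hr) and 9.07 (24 hr). Its log2 ratio was 0.17 at 1.5 hr, which is below the median of coding genes, -1.15 at 6 hr, a 2.21-fold lower level, and -0.38 at 24 hr. Relative to the median coding gene at 6 hr it was at -0.42, which is less than 2-fold.

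Fosl2 made up 74.7% of the summed RPKM of the 4 Fos genes before treatment, and then 60.2% (1.5 hr), 56.9% (6 hr) and 52.7% (24 hr). Fosl1 made up 17.9%, 37.5%, 38.3% and 43.8%. Once each gene was centred on the median of its GC bin, Fosl1 was ahead of Fosl2 at 1.5 hr (50.6% against 47.3%) and at 24 hr (54.6% against 42.3%). The order of the pair at those times thus depends on this correction. The level of Fosl2 was 4.17-fold that of Fosl1 untreated and 1.20-fold at 24 hr. The summed Jun genes stood 3.22-fold above the summed Fos genes in the untreated library, and 3.04-, 2.25- and 2.79-fold at 1.5, 6 and 24 hr.

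Fos and Fosb, which encode c-Fos and FosB, the classic immediate-early members, were low in every library. Fos was at 0.745 RPKM before treatment, then 0.352 (1.5 hr), 0.334 (6 hr) and 0.388 (24 hr), from 67, 33, 26 and 41 reads (the mean of R1 and R2). The untreated library was the highest, and the counting intervals of the 3 treated libraries overlapped each other. The log2 ratio of Fos at 1.5 hr was -1.08, with a counting interval from -1.73 to -0.46. Fosb was at 0.418 RPKM before treatment, then 0.170 (1.5 hr), 0.113 (6 hr) and 0.211 (24 hr), from 68, 29, 16 and 41 reads, with the untreated library again the highest. Both genes were below the expression filter, and the earliest treated library was taken at 1.5 hr.

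The remaining members are partners or modulators. Atf3, a stress-induced factor that often represses transcription, was at 0.313 RPKM before treatment, then 1.65 (1.5 hr), 0.440 (6 hr) and 0.498 (24 hr). The 1.5 hr library stood apart and its counting interval (1.39 to 1.94 RPKM) overlapped no other. The 5.27-fold higher level at 1.5 hr rests on 147 reads against 27, and the counting interval of the log2 ratio of 2.40 ran from 1.79 to 3.03, which takes in the value of Junb. Its log2 ratios at 6 and 24 hr, 0.49 and 0.67, had intervals that included 0. Atf3 was above 1 RPKM only in that library and its average stayed below the filter.

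Maff, a small Maf protein without an activation domain of its own, was at 1.78 RPKM before treatment, then 5.69 (1.5 hr), 1.70 (6 hr) and 2.79 (24 hr). The 1.5 hr library was the highest, and the untreated and 6 hr libraries overlapped in their counting intervals. Maff was 3.20-fold higher at 1.5 hr, a log2 ratio of 1.68 with a counting interval from 1.40 to 1.96, and 1.57-fold higher at 24 hr. Batf3, a factor known for its role in dendritic cells, was at 0.541, 0.456, 0.318 and 0.146 RPKM, from 17, 15, 9 and 5 reads. At that depth only the log2 ratio at 24 hr, -1.89 with an interval from -3.79 to -0.50, excluded 0.

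**Figure D4:**
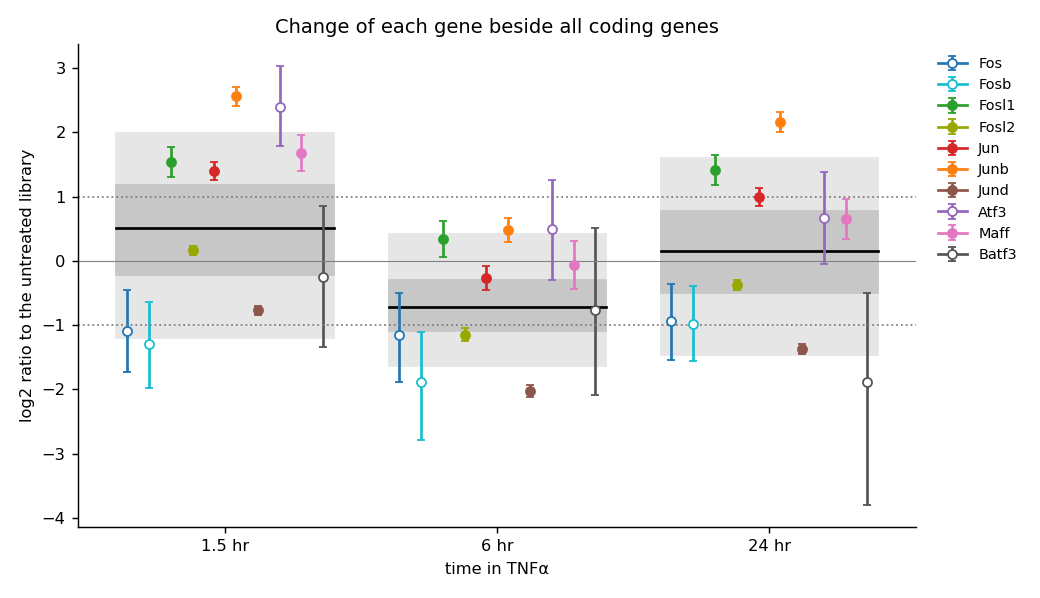
Log2 ratio of each gene to the untreated library at 1.5, 6 and 24 hr. Points are 1 library against 1 library, filled for average RPKM above 1 and open for the others, bars are 95% binomial intervals for counting error, and dotted lines mark 2-fold. The grey boxes show all 8706 coding genes above the filter (dark from the 25th to the 75th percentile, light from the 5th to the 95th, black line at the median). Junb lies above the light box at each time, and Jund below it at 6 hr.

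From 1.5 to 6 hr, all 6 genes above the filter were at least 2-fold lower, as were 66.4% of coding genes. The step was largest for Junb, 4.23-fold lower, with 7.65% of coding genes showing a lower ratio, and smallest for Fosl1, 2.29-fold lower. From 6 to 24 hr, Junb (3.20-fold), Jun (2.39-fold) and Fosl1 (2.10-fold), 3 of 6, were at least 2-fold higher, as were 47.9% of coding genes, and no member was lower (3.30%). Across the 10 genes, 6 had their highest level at 1.5 hr (Fosl1, Fosl2, Jun, Junb, Atf3 and Maff), as had 61.7% of coding genes above the filter. The other 4, Fos, Fosb, Jund and Batf3, were highest untreated, as were 29.6% of coding genes above the filter. The place of Fosl2 depends on the scaling, since its log2 ratio at 1.5 hr was 0.17 as deposited and -0.35 relative to the median coding gene. The place of Batf3 was not resolved, with 17 reads untreated and 15 at 1.5 hr. The 61.7% and 29.6% cover only genes above the filter, a set without Fos, Fosb, Atf3 and Batf3. These shares show that the dip at 6 hr was common to most genes of that library.

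The change between libraries also moved with the base composition of the transcript, so this is set beside the members. In the lowest GC quintile of coding genes the median log2 ratio at 1.5 hr was 1.27, and in the highest quintile it was -0.41. At 24 hr these medians were 0.82 and -0.65, and at 6 hr -0.24 and -0.91. Junb and Jund have nearly the same GC content, 62.6% and 62.7%, both in the highest quintile, and their log2 ratios lay at 2.56 and -0.77 at 1.5 hr. With each gene centred on the median of its GC bin, Junb was at 3.27, 1.40 and 3.09 at 1.5, 6 and 24 hr. Jund lay near the median of its GC bin at 1.5 hr and below it at 6 and 24 hr, as given with its levels. The part of GC content in the members' values was not tested.

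**Figure D5:**
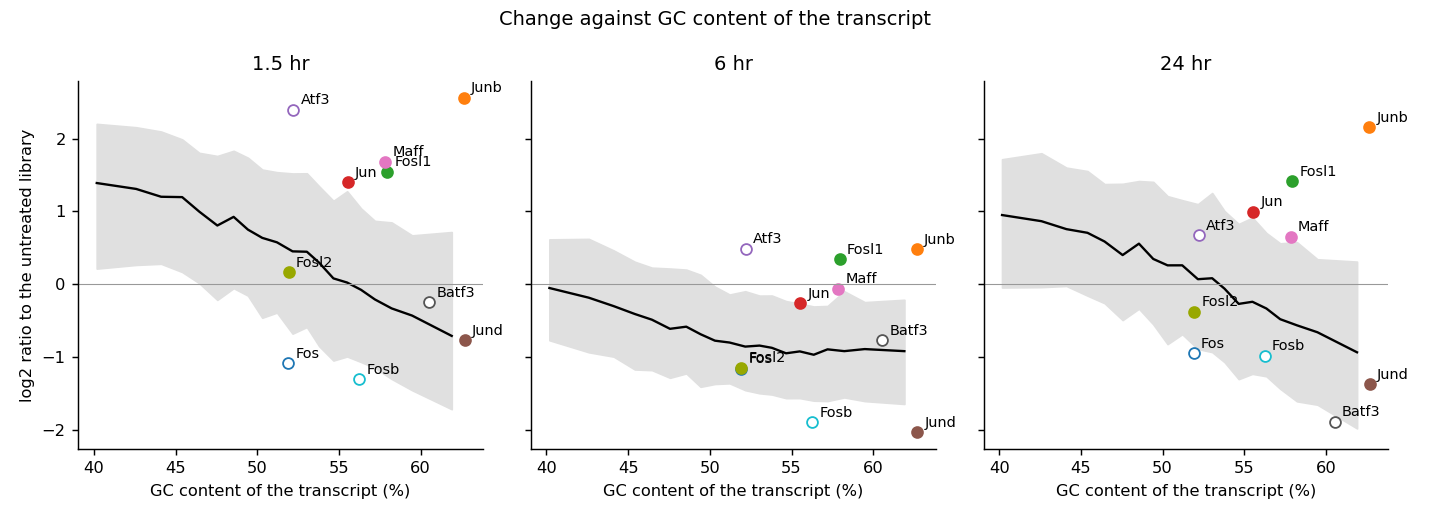
Log2 ratio to the untreated library against GC content of the transcript (%) at 1.5, 6 and 24 hr. The black line is the median of coding genes in 20 bins of GC content, the grey band runs from the 10th to the 90th percentile, and points are the 10 genes, filled for average RPKM above 1. Junb and Jund share the right edge of each panel at 62.6% and 62.7% GC but lie at 2.56 and -0.77 at 1.5 hr.

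Likeness of pattern was measured as Euclidean distance over the 3 log2 ratios to the untreated library, among 8706 coding genes. The genes nearest to Junb were Cstb, Ndufb4 and Vps29, at distances of 0.10, 0.14 and 0.17, and those nearest to Jund were Daam2, Prickle1 and Coro1a, at 0.06, 0.16 and 0.16. Nearest to Fosl1 were Rtn4, 2810453I06Rik and Trp53 (0.05, 0.09 and 0.11), and nearest to Maff were Fam136a, Casp12 and Ahctf1 (0.12, 0.13 and 0.13). Jun was nearest to Bcl2l13, Nit2 and Layn (0.02, 0.04 and 0.04), and Fosl2 to Rab13, Cluap1 and Gm3435 (0.04, 0.05 and 0.05). Within a distance of 0.5, Junb had 83 genes and Jund 95, whereas Jun had 1114 and Fosl2 1016. Among the members themselves, Jun and Maff were the nearest pair (0.49), and Fosb and Junb (5.51) and Junb and Jund (5.46) were the farthest. Fosb is below the filter, and its log2 ratio at 6 hr had a counting interval from -2.79 to -1.10. The order of the farthest pairs was thus not resolved.

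Other genes of the pathway were read from lists. Of 38 further bZIP genes, 25 were above the filter, and 8 were at least 2-fold higher and 2 lower at 1.5 hr, with a median log2 ratio of 0.54 beside 0.51 for all coding genes. At 6 hr 8 were lower and none higher, and at 24 hr 5 were higher and 3 lower. These counts are near the shares of all coding genes, which were 31.6% higher and 7.52% lower at 1.5 hr, 31.0% lower at 6 hr, and 17.4% higher and 11.9% lower at 24 hr. The C/EBP genes Cebpd and Cebpb, regulators of acute-phase genes, had log2 ratios of 2.68 and 2.44 at 1.5 hr, and Nfe2l2, the antioxidant regulator that pairs with small Maf proteins, 2.27. Cebpa, another C/EBP gene, was at -1.95 at 6 hr.

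Of 33 genes of the MAP kinase cascades, which act on AP-1 proteins, 23 were above the filter, and 10 were 2-fold higher and 2 lower at 1.5 hr (median log2 ratio 0.55 beside 0.51). At 6 hr 7 were lower and none higher, and at 24 hr 5 were higher and 4 lower. Of all coding genes, 31.6% were higher and 7.52% lower at 1.5 hr. At 6 hr 1.85% were higher and 31.0% lower, and at 24 hr 17.4% were higher and 11.9% lower. Mapkapk2 and Tab2 had log2 ratios of 1.76 and 1.73 at 1.5 hr, and Rps6ka1 was at -2.32 at 6 hr. The next list held the serum response factor, its cofactors of the Elk and Mkl families, which drive Fos and other immediate-early genes, and the related MADS-box genes of the Mef2 family. Of these, 8 were above the filter, and 1 (Mef2a) was higher at 1.5 hr, beside 31.6% of all coding genes, 2 were lower at 6 hr, beside 31.0%, and none passed 2-fold at 24 hr. The cofactors Mkl2 and Mkl1 were at -1.46 and -1.23 at 6 hr, Mef2a at 1.16 at 1.5 hr, and Elk4 at -0.92 at 6 hr.

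Of 15 genes listed as regulators of bZIP proteins, 12 were above the filter. Of these, 5 were higher and 1 lower at 1.5 hr, and 4 were lower at 6 hr. At 24 hr 2 were higher and 2 lower. The median log2 ratio at 1.5 hr was 0.58 beside 0.51. The shares of all coding genes were 31.6% higher and 7.52% lower at 1.5 hr and 31.0% lower at 6 hr. At 24 hr they were 17.4% higher and 11.9% lower. Trib3, a pseudokinase, was at -2.22 and the coactivator Crebbp at -1.43 at 6 hr, and the ubiquitin ligases Itch and Rfwd2 at 1.58 and 1.36 at 1.5 hr. Of 28 genes known as AP-1 targets in textbooks, 23 were above the filter, and 17 were at least 2-fold higher and none lower at 1.5 hr, beside 31.6% and 7.52% of all coding genes. Their median log2 ratio was 1.65 beside 0.51 for all coding genes. At 6 hr 7 were higher and 1 lower (median 0.08 beside -0.72), beside 1.85% and 31.0% of all coding genes. At 24 hr 14 were higher and 1 lower (median 1.34 beside 0.16), beside 17.4% and 11.9%. The chemokine Ccl2 had a log2 ratio of 6.60 at 1.5 hr and the cytokine Lif 3.64, while the matrix metalloproteinase gene Mmp10 reached 4.93 at 24 hr and the chemokine Cxcl1 was at 3.61 at 1.5 hr. Many of these genes are also NF-κB targets, and Ccl2 and Cxcl1 are counted again in the next list.

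The response to TNFα itself was checked with 10 known target genes, all above the filter. All 10 were at least 2-fold higher at 1.5 hr and 9 of 10 at both later times, with median log2 ratios of 3.69, 2.12 and 2.53. The shares of all coding genes at least 2-fold higher were 31.6%, 1.85% and 17.4%. The inhibitors Tnfaip3 and Nfkbia had log2 ratios of 5.81 and 4.50 at 1.5 hr, the adhesion gene Vcam1 4.42, and Ccl2 6.60. One label field of the 24 hr library describes ChIP, while its title, treatment and the levels of these genes are those of RNA-seq after TNFα. The cell type was checked with markers. All 12 fibroblast markers were above the filter, with summed levels of 1103 to 2437 RPKM, led by Col1a1 at 297 to 1073 RPKM and by Thy1. Endothelial markers summed to at most 0.169 RPKM, led by Kdr, and epithelial markers to at most 1.24 RPKM, with Epcam listed at 0 and Krt18 the highest. Muscle markers summed to at most 7.78 RPKM, nearly all of it Des, with Myod1 listed at 0. Macrophage markers were present, and some were higher at 1.5 hr. Of the 9 markers measured, 6 were above the filter, and the 9 summed to 104 RPKM before treatment, then 451 (1.5 hr), 89.4 (6 hr) and 228 (24 hr). Lyz2 made up most of this, at 55.0, 358, 65.7 and 175 RPKM, and Tyrobp and Cd68 followed. Of the 6, Cd14, Lyz2 and Tyrobp were at least 2-fold higher at 1.5 hr (log2 ratios of 3.04, 2.70 and 1.11), and Itgam, Cd68 and Csf1r were not (0.65, 0.44 and -0.04). Of the markers below the filter, Emr1 and the leukocyte marker Ptprc had log2 ratios of 1.49 and 1.20 at 1.5 hr, and Fcgr1 -0.15. The levels of Ptprc were 0.326, 0.751, 0.211 and 0.405 RPKM. Their part in the levels of the AP-1 genes was not tested.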

How the data were processed

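Per the study's methods, the authors mapped the RNA reads to mm9 with TopHat and computed RPKM with an in-house script, and for ChIP-seq used Bowtie and called peaks with MACS. The version of MACS, its control library and whether RNA reads were counted by strand are not given in the sources used here. The deposited RPKM values were whole numbers of aligned bases scaled by library and length, and the commonest low values stood for 41 bases, so the deposited RPKM was divided by 41 (1 read). The deposited peak list gives tag counts, MACS fold enrichment as a ratio, FDR in percent and a score made from the log10 of the p-value. Of these, the counts, fold enrichment and positions were used, and the score was not. Columns were tied to times through the names in the study's depth sheet.

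Each library has an R1 and an R2 column, whose content is not stated; they were averaged. Of low genes, 28.2% to 34.3% held the same number of bases in both, against 9.68% between the untreated and 1.5 hr R1 columns, which does not tell mates from repeat runs. Log2 ratios used no pseudocount. A gene was called at 2-fold or more with average RPKM above 1. No test was made, since each time has 1 library. GC content was matched for 98.2% of coding genes above the filter. Peaks were assigned within 1 kb of starts in the mm9 annotation. Promoters came from RefSeq (GRCm38.p6), and no position was carried between builds. Fosl1 had no promoter entry. A planned comparison of protein sequences was not made, for want of a protein table. Scripts ran under Python 3.11.15, numpy 2.4.6, pandas 2.3.3, scipy 1.17.1 and matplotlib 3.10.9 and were tested on simulated data.

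The members and lists (other bZIP genes, MAP kinase cascade, serum response factor, AP-1 targets, regulators, TNF response and cell type markers) were chosen with earlier results of these data known. All 10 members are named. Of each other list, up to 4 genes with average RPKM above 1 and the largest absolute log2 ratio are named, and of the marker lists the highest detected ones, with defining markers added. One gene that this rule names is not reported here. Of like genes, the 3 nearest to each member are named. Alternatives were other scalings (sum, median of ratios, trimmed mean, 20 GC bins), pseudocounts, filters, fold thresholds, R1 or R2 alone, summed transcript entries, and other windows and peak thresholds.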

Additional observations from a re-analysis of the deposited data

Results flagged for a closer look

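For 3 genes the log2 ratios at 1.5 and 6 hr had opposite signs. The median coding gene showed the same signs, at 0.51 at 1.5 hr and -0.72 at 6 hr, so the pattern is not particular to them. The share of all coding genes with opposite signs was not counted. Fosl2 had a log2 ratio of 0.17 at 1.5 hr and -1.15 at 6 hr. Jun had a log2 ratio of 1.40 at 1.5 hr and -0.26 at 6 hr, and Maff 1.68 and -0.062. The counting interval of Maff at 6 hr, from -0.43 to 0.30, included 0, so its side of the untreated library was not resolved. With 1 library per time the difference was not tested. The negative sign of Jun and Maff at 6 hr depends on the scaling of the libraries: relative to the median coding gene they were at 0.46 and 0.66, and centred by GC content at 0.66 and 0.85. The sign of Fosl2 at 1.5 hr also depends on it, since it was -0.35 relative to the median coding gene.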

How the results depend on the processing

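No paired analysis was possible because each time has 1 library and no test was made. The 4 scalings (to the sum, to the median ratio, by trimmed mean and within 20 GC bins) each gave 2 members at least 2-fold higher at 6 hr, Fosl1 and Junb, in place of 0, and 1 lower, Jund, in place of 2. Of coding genes, 4.88% to 10.2% were then higher at 6 hr and 2.07% to 3.86% lower. The first 3 of these scalings gave 1 lower at 1.5 hr, Jund, in place of 0, beside 12.2% to 17.8% of coding genes. Within GC bins 4 were higher at 24 hr (Fosl1, Jun, Junb and Maff) and 0 lower, beside 9.94% and 8.81% of coding genes. With no filter on RPKM, 2 of the 10 were lower at 1.5 hr (Fos and Fosb), 4 at 6 hr and 2 at 24 hr. The shares of all coding genes were 14.1%, 31.3% and 17.8%. At a 1.5-fold threshold 1 was lower at 1.5 hr (15.3% of coding genes) and 4 were higher at 24 hr (32.6%). At a 3-fold threshold 2 were higher at 1.5 hr (Junb and Maff, beside 12.9%) and 1 was lower at 6 hr (6.03%). At that threshold 1 was higher at 24 hr (5.15%) and 0 were lower (3.70%). At 1.5 hr, 4 stayed higher when scaled to the sum (22.2% of coding genes) or within GC bins (10.4%). Without Jun, 3 stayed higher under the other 2 scalings (14.7% and 15.2%). R1 or R2 alone moved no ratio by more than its counting error. Shares within GC bins, tried after the data were seen, put Jund at 38.9% and Junb at 50.3% of the Jun family at 1.5 hr. Fosl1 was then at 50.6% and Fosl2 at 47.3% of the Fos family, which turns their order. The 9 members with a peak of fold enrichment of at least 30 left out Batf3. Depth limits Fos, Fosb, Atf3 and Batf3, which rest on 5 to 147 reads a library.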
